A study of Mus musculus with 20 samples.

Results

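Tumour necrosis factor (TNF) superfamily ligands and receptors were followed in whole mouse trachea, with and without injury and with and without Myd88. The 10 genes were the ligands Tnf, Ltb, Tnfsf10, Tnfsf11 and Tnfsf13b and the receptors Tnfrsf1a, Tnfrsf1b, Tnfrsf12a, Cd40 and Fas. Their 14 probes were found by gene name among the 41174 probes of a one-colour Agilent whole mouse genome array.

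The arrays covered 20 whole tracheas, 5 each from wild-type and Myd88KO mice left uninjured and 5 each from wild-type and Myd88KO mice after injury. All mice were of the C57/Bl6 strain, given as 4 months old in the labels, and neither control group received polidocanol. Injury was a single instillation of 2% polidocanol, a detergent that strips the surface epithelium of the airway, 3 days before the trachea was taken. Myd88KO mice carried the deletion in all cell types and came from crosses of knockout parents, whereas wild-type mice came from a colony of their own, so that genotype and colony cannot be told apart. Mice of both sexes were used and the sex of each sample is not given.

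Ligands of this superfamily are mostly made as trimers on the cell surface, and they cluster receptors on the same or neighbouring cells. Receptors with a death domain, such as Tnfrsf1a and Fas, can lead to caspase activation and cell death, and most members recruit TRAF adaptors that activate NF-κB. Myd88 is the adaptor through which most Toll-like receptors and the IL-1 receptor reach NF-κB, and Tnf is among the best known genes switched on by that route in macrophages and neutrophils.

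The promoters of 3 members are shown because Tnf was the ligand whose groups differed most by genotype, Ltb is its neighbour on the same chromosome and Tnfrsf1b was the member with the clearest response to injury. Each run is the 250 bases before the annotated start, 5′ to 3′ on the strand of the gene, from RefSeq annotation of GRCm38.p6. Tnf lies on the minus strand at chr17:35202008-35202257, Ltb on the plus strand at chr17:35194257-35194506 and Tnfrsf1b on the minus strand at chr4:145246871-145247120. Capitals mark a match to the NF-κB consensus of 10 bases, searched on both strands.
Tnf: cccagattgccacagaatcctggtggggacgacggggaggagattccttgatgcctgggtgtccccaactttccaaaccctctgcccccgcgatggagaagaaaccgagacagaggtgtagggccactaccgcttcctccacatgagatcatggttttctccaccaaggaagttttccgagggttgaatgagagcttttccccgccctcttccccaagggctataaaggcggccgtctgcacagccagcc
Ltb: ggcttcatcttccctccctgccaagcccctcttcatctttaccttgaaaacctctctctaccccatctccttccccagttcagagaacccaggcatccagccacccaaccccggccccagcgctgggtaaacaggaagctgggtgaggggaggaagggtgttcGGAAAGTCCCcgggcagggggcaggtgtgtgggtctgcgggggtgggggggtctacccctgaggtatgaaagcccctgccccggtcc
Tnfrsf1b: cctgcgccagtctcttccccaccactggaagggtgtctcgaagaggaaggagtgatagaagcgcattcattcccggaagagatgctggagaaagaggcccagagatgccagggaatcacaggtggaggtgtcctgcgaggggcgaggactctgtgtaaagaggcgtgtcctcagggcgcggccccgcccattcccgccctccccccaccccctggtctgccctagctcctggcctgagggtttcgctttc
The only match among the 10 windows held for 9 members was in Ltb, at positions -87 to -78 from the start. Of all 32851 promoter windows of the same length, 7.25% held a match. A window without a match says only that these letters are absent from it.

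Levels are log2 intensities relative to the 75th percentile of the same array, so that 0 marks that percentile, and differences are in the same log2 unit. Testing was limited to probes that 10 or more of the 20 arrays measured well above background. This held for 26063 probes of the array and for 12 of the 14 member probes, covering 9 genes. Both probes of Tnfsf11, the osteoclast-forming ligand also known as RANKL, were too dim. A probe was called where its adjusted p in limma, fitted to all 20 arrays, was under 0.01. Because these are bulk samples, fewer cells of a type and less RNA per cell cannot be told apart.

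Between 57.5% and 67.8% of probes were well above background on an array. Injured Myd88KO replicate 5 had the lowest share and 192 outlier spots against 69 to 113 on the other 19 arrays. Several member differences that rest on it are therefore also given without it. The Myd88 probe was well above background in all groups. Its levels in uninjured Myd88KO (1.60 to 2.04) overlapped those in uninjured wild-type (1.94 to 2.28), whereas injured Myd88KO (1.54 to 2.09) lay below injured wild-type (2.36 to 2.80). It is not known whether this probe falls within the deletion, so it does not check the genotype labels. The tissue label was borne out by high summed levels of secretory (422 to 2320) and smooth muscle markers (126 to 260) in every group. These sums are in units of the percentile each array was centred on. Cartilage markers were lower, at 20 to 50. Markers of other tissues were also high, at 336 to 1130 for skeletal muscle and 86.3 to 472 for thyroid. White adipocyte markers were at 72.5 to 403 and brown adipocyte markers at 43.2 to 248. Sums of different genes do not measure how much of each tissue a sample held.

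Injury in wild-type trachea raised 1 of the 12 member probes, the Tnfrsf1b probe A_52_P228621, and 5.26% of all tested probes were called in this comparison. Tnfrsf1b encodes the second TNF receptor, which lacks a death domain and is found mainly on leukocytes and endothelium. Uninjured wild-type replicates 1 to 5 had Tnfrsf1b levels of -1.61, -2.10, -1.83, -1.72 and -2.02, and injured wild-type replicates had 1.04, 0.88, -0.07, 0.45 and 1.37. Every injured trachea lay above every uninjured one. The mean rose from -1.86 to 0.74, a difference of 2.59 ± 0.42 (SE, n = 5 in each group), or 6.04-fold, with a limma adjusted p of 0.000822. The 10 spots of this probe on an array spread by an SD of 0.06 to 0.14, which is technical spread within a sample.

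The same probe gave a wider picture in Myd88KO trachea. Uninjured Myd88KO levels were -1.59, -1.58, -1.57, -1.71 and -1.88, and injured levels were -1.29, 0.55, -1.30, 0.67 and -2.24. Replicates 2 and 4 were in the range of injured wild-type trachea, replicates 1 and 3 lay a little above their uninjured group, and replicate 5 lay below it. The mean difference of 0.95 ± 0.42 (SE) did not pass the test (adjusted p = 0.218), and without replicate 5 it was 1.33 with an adjusted p of 0.0247. The injury responses differed by -1.65 (95% interval -2.88 to -0.42), with an unadjusted p of 0.0113 and an adjusted p of 0.391 in limma. It had the same sign on 4 of the 5 slides.

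A further Tnfrsf1b probe, A_51_P278282, disagreed. Its injury difference in wild-type trachea was 0.22 (95% interval -0.09 to 0.52, adjusted p = 0.365), with 4 of 5 slides higher. In the array annotation, whose genome build is not stated, A_52_P228621 lies at chr4:144626830-144626889 and A_51_P278282 spans chr4:144635392-144635965. The latter span is longer than a probe, and neither exon nor intron is given for either position. The statement about Tnfrsf1b therefore rests on 1 probe.

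**Figure D1:**
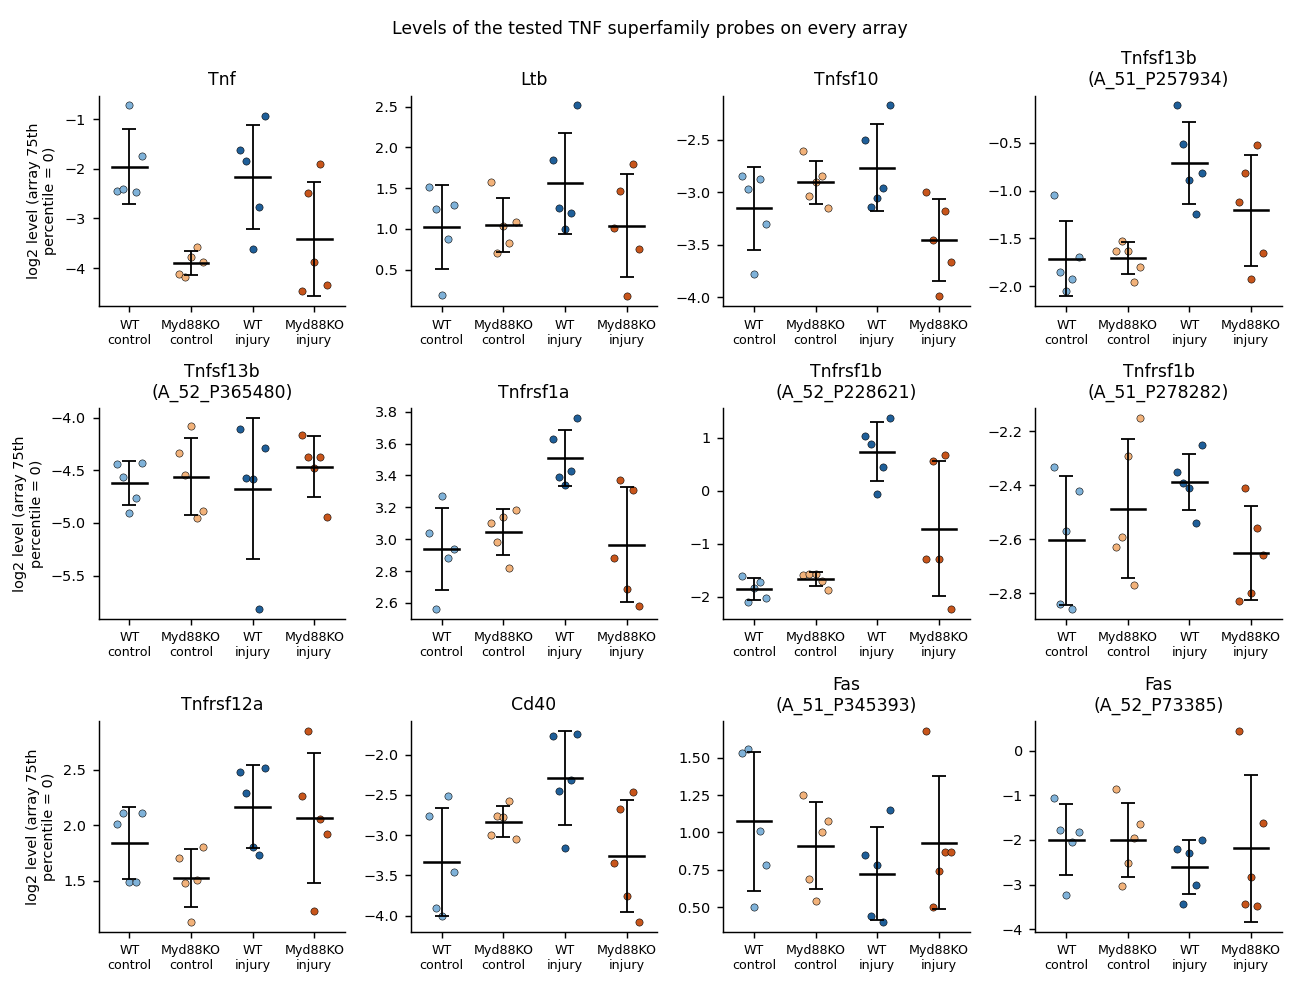
Log2 level (y axis, array 75th percentile = 0) of the 12 tested probes in the 4 groups (x axis), with 1 point for each of 5 arrays, the mean as a line and the SD as a bar. For Tnfrsf1b probe A_52_P228621 the injured wild-type arrays sit between -0.07 and 1.37, above all uninjured arrays, and for Tnf the uninjured Myd88KO arrays sit between -4.17 and -3.57, below all uninjured wild-type arrays.

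Tnfrsf1a, the first TNF receptor, carries a death domain and is present on most cells. Uninjured wild-type levels were 3.04, 2.56, 3.27, 2.88 and 2.94, and injured levels were 3.63, 3.39, 3.34, 3.43 and 3.76. Both groups were narrow and did not overlap, as held in this direction for 7.89% of all tested probes, yet the difference of 0.57 ± 0.17 (SE) missed the threshold (adjusted p = 0.0288). Injured Myd88KO levels were 2.88, 3.37, 2.69, 3.31 and 2.58, around an uninjured range of 2.82 to 3.18, and the difference was -0.08 (95% interval -0.43 to 0.27, adjusted p = 0.841). Without injured Myd88KO replicate 5 this difference was 0.02.

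Cd40, the receptor through which T cells activate B cells, dendritic cells and macrophages, did not pass the test in either genotype. Uninjured wild-type levels were -2.76, -3.91, -4.01, -2.52 and -3.46, and injured levels were -1.77, -2.45, -3.16, -2.32 and -1.74. Each injured trachea was above the uninjured one on its slide, although the groups overlapped, and the difference of 1.05 ± 0.34 (SE) had an adjusted p of 0.0487. With normexp background correction it was 0.58. In Myd88KO trachea the levels were -3.0, -2.76, -2.78, -2.58 and -3.05 without injury and -3.34, -2.67, -3.75, -2.46 and -4.08 with it. The last, in injured replicate 5, was not well above background. On 3 of the 5 slides the level was lower after injury and the difference was -0.42 (95% interval -1.14 to 0.29, adjusted p = 0.529). Without injured Myd88KO replicate 5 this difference was -0.22. The injury responses differed by -1.47 ± 0.48 (SE), lower in Myd88KO on 5 of 5 slides, with an unadjusted p of 0.00639 and an adjusted p of 0.391 in limma, and by -0.85 with normexp background correction.

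Tnfrsf12a, the receptor for the ligand TWEAK and a gene often induced in regenerating tissue, was above its slide's uninjured array on 5 of 5 slides in both genotypes. The differences were 0.32 in wild-type (adjusted p = 0.439) and 0.54 in Myd88KO (adjusted p = 0.243), and neither passed. Fas, the death receptor for Fas ligand, had 2 probes, with wild-type injury differences of -0.35 (adjusted p = 0.374) and -0.60 (adjusted p = 0.571) and Myd88KO differences of 0.02 (95% interval -0.48 to 0.51) and -0.19 (95% interval -1.47 to 1.09). The wide interval of the Fas probe A_52_P73385 went with a range of -3.49 to 0.45 in the injured Myd88KO group.

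Among the ligands, Tnfsf13b, the B cell survival factor BAFF made by myeloid and epithelial cells, came closest to a call after injury. Its probe A_51_P257934 had levels of -1.05, -1.85, -2.05, -1.92 and -1.69 in uninjured and -0.11, -0.51, -0.89, -1.25 and -0.82 in injured wild-type trachea. Only uninjured replicate 1 reached the injured range, and all 5 slides were higher after injury. The difference was 1.00 ± 0.26 (SE), or 1.99-fold, with an adjusted p of 0.015, and with the slide as a block the adjusted p was 0.00988, which passes the threshold. In Myd88KO trachea it was 0.50 (95% interval -0.04 to 1.04, adjusted p = 0.293), or 0.61 without injured replicate 5. The other probe, A_52_P365480, well above background on 15 of the 20 arrays, had a wild-type difference of -0.06 (95% interval -0.59 to 0.48), so the probes of Tnfsf13b disagreed as well. In the array annotation they lie at chr8:10005713-10005772 and chr8:10007535-10007594.

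Ltb encodes lymphotoxin beta, a lymphocyte ligand that shapes lymphoid tissue. Its injury difference was 0.54 in wild-type (95% interval -0.14 to 1.21, adjusted p = 0.306), higher on 5 of 5 slides, and 0.00 in Myd88KO (95% interval -0.68 to 0.67). Tnfsf10, known as TRAIL, a ligand of death receptors, had levels of -2.61, -3.03, -2.90, -2.84 and -3.15 in uninjured and -3.0, -3.45, -3.99, -3.18 and -3.66 in injured Myd88KO trachea. Every slide was lower after injury and the groups overlapped only narrowly, with a difference of -0.55 ± 0.23 (SE, adjusted p = 0.185), or -0.32 with normexp background correction. In wild-type trachea the difference was 0.39 (95% interval -0.08 to 0.86, adjusted p = 0.288). The injury responses of Tnfsf10 differed by -0.94 (95% interval -1.60 to -0.27), lower in Myd88KO on 5 of 5 slides, with an unadjusted p of 0.00811 and an adjusted p of 0.391 in limma, and by -0.53 with normexp background correction.

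Tnf itself, measured by a probe placed at chr17:33296067-33296126 in the array annotation, did not differ detectably with injury. Uninjured wild-type levels were -2.44, -2.41, -0.72, -2.47 and -1.74, and injured levels were -1.63, -1.84, -3.62, -2.78 and -0.94. Both groups were wide and covered much the same range, and the difference was -0.21 (95% interval -1.27 to 0.86, adjusted p = 0.839). In Myd88KO trachea it was 0.48 (95% interval -0.59 to 1.55, adjusted p = 0.651), or 0.72 without injured replicate 5 (adjusted p = 0.413), with the injured levels at -4.46, -2.49, -3.88, -1.91 and -4.35. The last, in replicate 5, was not well above background. Mean Tnf in Myd88KO lay low among tested probes, at percentile 10.8 without injury and 18 with it. Replicates 2 and 4 were again the highest of the injured Myd88KO group, as for Tnfrsf1b.

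Tnfsf11 was not well above background in any uninjured trachea. Both of its probes were well above background in injured wild-type replicates 1 and 5, with levels of -3.92 and -3.38 for A_52_P488947 and -4.36 and -4.15 for A_51_P465640. In injured Myd88KO trachea only A_52_P488947 was well above background, and only in replicate 2, at -5.10. No fold or test is given, because 2 of 5 arrays measured it in the brightest group.

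Over the 12 member probes, the median injury difference was 0.36 in wild-type and 0.01 in Myd88KO. At an unadjusted p under 0.05, 4 were higher and 0 lower in wild-type, against 14.5% of tested probes higher and 11.9% lower. In Myd88KO trachea 0 members were called, where 0.376% of tested probes were called, and 3 had an unadjusted p under 0.05 (19.5% of tested probes did). These were Tnfrsf1b and Tnfrsf12a, higher, and Tnfsf10, lower.

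**Figure D2:**
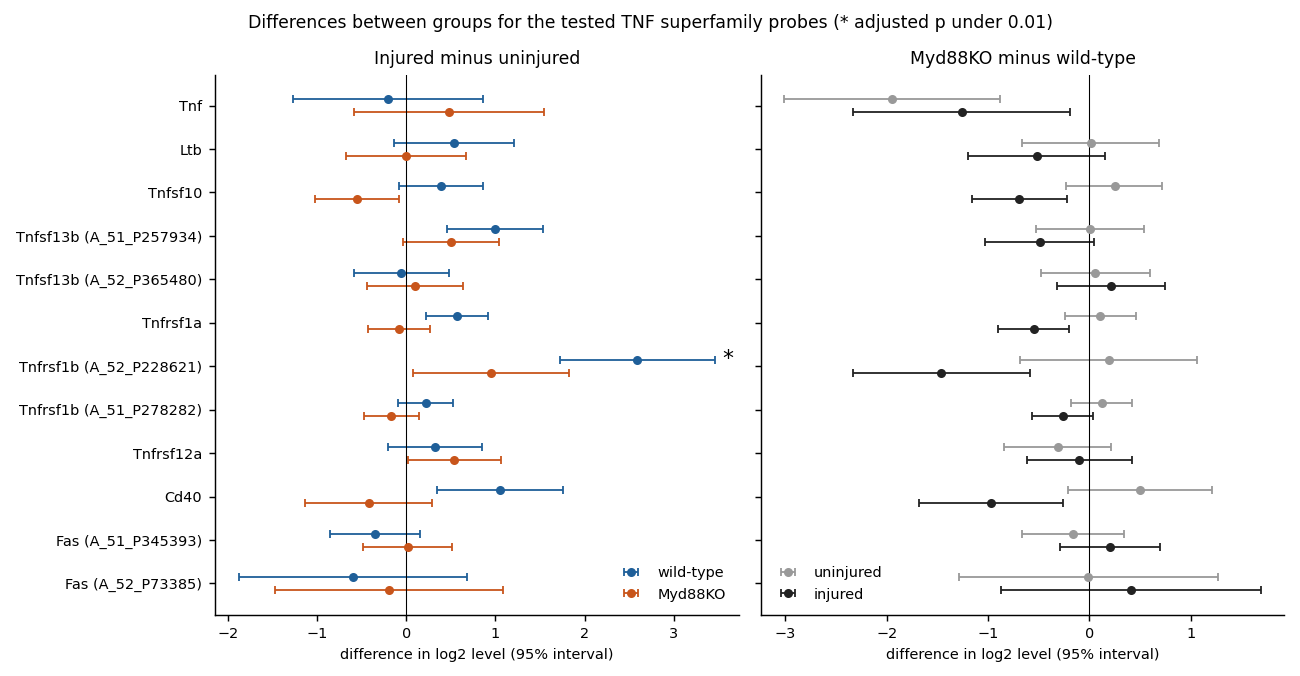
Difference in log2 level (x axis, with its 95% interval) for each tested probe (y axis). The left panel shows injured minus uninjured trachea in each genotype, where the Tnfrsf1b probe A_52_P228621 in wild-type (2.59) is the single called difference, and the right panel shows Myd88KO minus wild-type with and without injury, where Tnf without injury (-1.95) is the largest.

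Without injury, loss of Myd88 went with a lower Tnf signal in every sample. Uninjured Myd88KO levels of Tnf were -4.11, -4.17, -3.78, -3.57 and -3.87, below the lowest wild-type value of -2.47, and they varied less than the wild-type values. Among all tested probes, 0.806% were lower in uninjured Myd88KO without overlap. The difference was -1.95 ± 0.51 (SE), a 3.85-fold lower mean, on 5 of 5 slides, but it did not pass over all probes (unadjusted p = 0.00116, adjusted p = 0.14 in limma), and 0.384% of tested probes were called in this comparison. The 10 spots of the Tnf probe spread by an SD of 0.04 to 0.27 on an array. With normexp background correction the difference was -1.12, the smallest among the alternatives, and without uninjured wild-type replicate 3 it was -1.64.

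None of the other 11 tested probes had an unadjusted p under 0.05 between the genotypes in uninjured trachea. Cd40 was higher by 0.50 (95% interval -0.21 to 1.21) and Tnfrsf12a lower at -0.31 (95% interval -0.84 to 0.21), both with an adjusted p of 1. Tnfrsf1b (A_52_P228621), Tnfrsf1a and Ltb differed by 0.19, 0.11 and 0.02. Of all tested probes, 5.59% had an unadjusted p under 0.05, as Tnf did.

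In injured trachea 9 of the 12 member probes were lower in Myd88KO and 3 were higher. Of all tested probes 45.3% were higher, so lower values were the more common over the whole array too. The difference of Tnfrsf1b (A_52_P228621) was -1.46 ± 0.42 (SE, adjusted p = 0.136), that of Tnf -1.26 ± 0.51 (adjusted p = 0.302), that of Cd40 -0.97 ± 0.34 (adjusted p = 0.231), that of Tnfsf10 -0.69 ± 0.23 (adjusted p = 0.196) and that of Tnfrsf1a -0.55 ± 0.17 (adjusted p = 0.167). These 5 had an unadjusted p under 0.05, against 8.09% of tested probes lower at that level. No member was called, and 0.38% of tested probes were. Cd40, Tnfsf10 and Tnfrsf1a were lower on 5 of 5 slides, Tnf and Tnfrsf1b on 4. Without replicate 5 of injured Myd88KO the Tnfrsf1b difference was -1.08 (adjusted p = 0.315) and that of Cd40 was -0.77 (adjusted p = 0.457). Those of Tnf, Tnfsf10 and Tnfrsf1a were -1.02, -0.64 and -0.45 without it (adjusted p = 0.522, 0.371 and 0.369). The Tnf difference was -0.70 with normexp background correction and -0.58 with array weights, and that of Tnfsf10 was -0.43 with normexp. The Tnfrsf1b and Cd40 differences were -0.84 and -0.62 with array weights, and that of Cd40 was -0.60 with normexp. Comparisons within a genotype and between genotypes share their samples, so these differences are not separate evidence from the injury responses above.

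The difference between the injury responses was called for no member and for 0% of all tested probes. At an unadjusted p under 0.05, Tnfrsf1b (A_52_P228621), Cd40, Tnfsf10 and Tnfrsf1a had a lower response in Myd88KO and none had a higher one. Over all tested probes 6.96% were lower at that level and 3.41% higher. Tnf went the other way, at 0.69 (95% interval -0.82 to 2.20, adjusted p = 0.749). Without replicate 5 of injured Myd88KO the differences were -1.27 for both Tnfrsf1b and Cd40, -0.89 for Tnfsf10 and -0.56 for Tnfrsf1a, with adjusted p values of 0.411 to 0.431. With array weights they were -1.01 for Tnfrsf1b and -0.93 for Cd40.

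Markers of leukocytes were read on the same arrays. The summed level of the 5 neutrophil markers on the array, in units of the array 75th percentile, was 2.53 to 33.2 in uninjured wild-type and 0.414 to 2.41 in uninjured Myd88KO trachea, without overlap, as for Tnf. The sum is set largely by S100a9, and gene by gene 0 of the 5 were called between the uninjured genotypes, with a median difference of -1.90, Mpo at 0.28 and Retnlg at -0.45. In the same comparison 0 macrophage, T and NK cell or B cell markers were called, with medians of -0.22, 0.60 and 0.15. After injury it was 14.6 to 258 in wild-type and 0.436 to 42.7 in Myd88KO, and 1 of the 5 markers was called higher after injury in wild-type and 0 in Myd88KO. Within injured Myd88KO it was 18.8 in replicate 2 and 42.7 in replicate 4, against 2.33, 1.03 and 0.436 in replicates 1, 3 and 5, the same order as for Tnfrsf1b (A_52_P228621) and Cd40. Replicates 2 and 4 were the highest injured Myd88KO arrays for 7 of the 12 tested member probes: Tnf, Ltb, Tnfrsf1a, Cd40, Tnfsf13b (A_51_P257934) and both Tnfrsf1b probes. How many of all tested probes rank these arrays highest was not counted, so the ranking cannot be called particular to the members. By array the order did not always follow: the highest uninjured wild-type Tnf level, -0.72 in replicate 3, went with a neutrophil sum of 7.9, and the highest sum, 33.2 in replicate 1, with a Tnf level of -2.44.

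Macrophage and monocyte markers also rose with injury in wild-type, 3 of 7 called and all tested, with a median difference of 1.55, against 0 called and 0.95 in Myd88KO. Their summed level is set largely by the brightest gene and ranged over 313 to 555 in uninjured and 340 to 529 in injured wild-type. Dendritic cell markers had 2 of 5 called higher in wild-type, but their median difference was 0.01. Secretory cell markers fell in both genotypes, 3 of 4 in wild-type and 2 of 4 in Myd88KO. Over all tested probes, 3.24% were called higher after injury and 2.03% lower in wild-type, and 0.134% higher and 0.242% lower in Myd88KO. T and NK cell markers had 0 of 5 called, with Ncr1 not well above background on any array, and B cell markers had 0 of 3. Between the injured groups no marker of these or of fibroblasts or endothelium was called, and the medians in Myd88KO against wild-type were -3.22 for neutrophils, -0.77 for macrophages, -0.80 for fibroblasts and -0.40 for endothelium. The injury response differed by a median of -0.99 for neutrophil, -0.84 for macrophage, -0.73 for fibroblast and -0.68 for endothelial markers, none of them called. White adipocyte (-0.85) and thyroid markers (-0.80) had similar medians, and secretory (0.77) and ciliated markers (0.94) went the other way. The part of any of these cell types in the member differences was not tested.

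**Figure D3:**
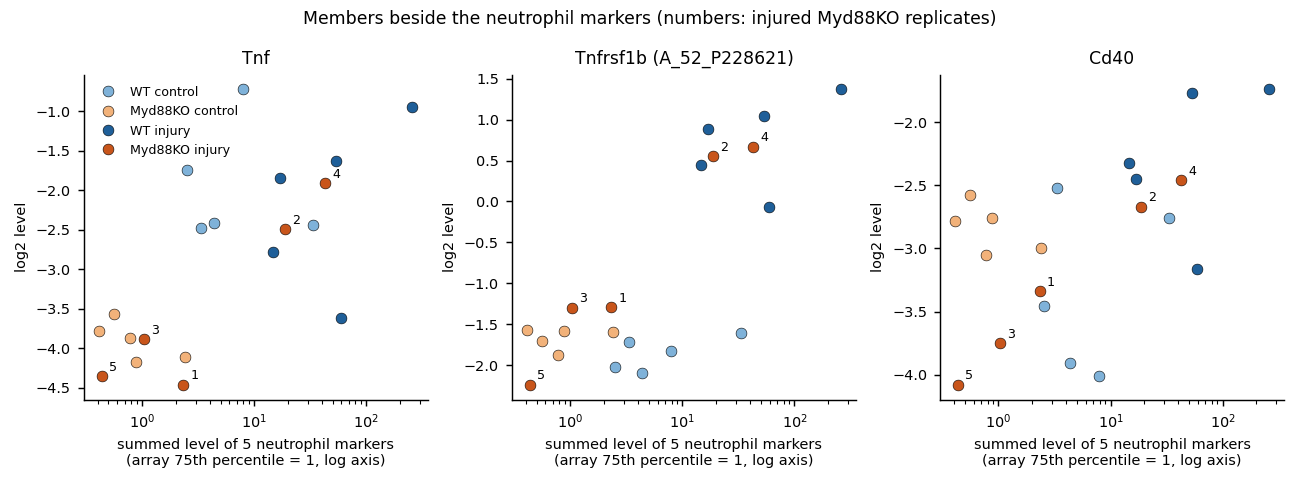
Log2 level (y axis) of Tnf, Tnfrsf1b (A_52_P228621) and Cd40 against the summed level of 5 neutrophil markers on the same array (x axis, log scale), 1 point per array coloured by group, with injured Myd88KO arrays numbered. Injured Myd88KO arrays 2 and 4, with sums of 18.8 and 42.7, sit with injured wild-type arrays in each panel, and the uninjured Myd88KO arrays sit at sums of 2.41 or less.

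Genes whose levels followed a member most closely were found from the deviations of the 20 arrays from their group means, as Pearson's r. Cell type markers varied between the arrays of a group, as in the neutrophil sums of 0.436 to 42.7 within injured Myd88KO. Genes of 1 cell type can therefore vary together, and these values are descriptions. For Tnf they were Il1rn (r = 0.932), the interleukin 1 receptor antagonist, Tnfaip3 (0.921), an inhibitor of NF-κB signalling, and Rap2b (0.914). For Tnfrsf1b (A_52_P228621) they were Fcgr3 (0.979), an Fc receptor of myeloid cells, Slc11a1 (0.967), a metal transporter of phagocytes, and Myo1f (0.963). This probe had an SD of 1.27 in injured Myd88KO against 0.13 to 0.56 in the other groups, so its r rests mostly on those 5 arrays. Ltb was closest to Hcst (0.945), an adaptor of lymphocyte receptors, and Cd52 (0.925), a leukocyte surface protein. Cd40 was closest to Snx8 (0.876), Camkk2 (0.866) and Csf2ra (0.861). Tnfsf10 was closest to Rpl36a (0.949), Tnfsf13b to Nipa2 (0.857), Tnfrsf12a to Yaf2 (0.844) and Fas to an array entry with no gene symbol (0.93). Among members, the highest r was between Ltb and Tnfsf10 (0.81), followed by Tnfrsf1a with Tnfrsf1b (0.792).

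The wider family was read from 4 lists, with 1 probe a gene. Of 13 other ligands, 4 were tested. Tnfsf14, known as LIGHT, was called higher after injury in wild-type by 2.70 ± 0.40 (SE), 6.50-fold, with an adjusted p of 0.000486, and its difference in injured Myd88KO against wild-type was -1.68 (adjusted p = 0.0616). Lta, which pairs with Ltb and lies beside Tnf, had the lowest p after injury in Myd88KO, at -1.44 (adjusted p = 0.0985). The median of the tested ligands was 0.01 in wild-type.

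Of 22 other receptors, 18 were tested and 0 were called after injury in wild-type, where 10 had an unadjusted p under 0.05, 8 of them higher. Over all tested probes these shares were 5.26% called, 26.4% under 0.05 and 14.5% higher, and 0 to 2 receptors were called across the alternatives. Tnfrsf11a, the receptor for Tnfsf11, was nearest to a call at 0.53 (limma adjusted p = 0.0133). Its groups did not overlap, as held in this direction for 7.89% of all tested probes. The other tested probe of Tnfrsf11a, A_51_P122906, was at 0.48 (limma adjusted p = 0.121). Edar, the ectodysplasin receptor of skin appendages and glands, was called lower after injury in Myd88KO (-0.83, adjusted p = 0.00711) and higher in uninjured Myd88KO than wild-type (0.78, adjusted p = 0.00901). These Edar calls held in 14 and 7 of 30 alternative settings, with adjusted p values up to 0.109 and 0.0449.

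The adaptors, kinases and caspases of the receptors were all tested, 24 of 24, and 5 were called after injury in wild-type, 4 higher and 1 lower. Over all tested probes 5.26% were called, 3.24% higher and 2.03% lower. The number of these genes called was 4 to 7 across the alternatives. Ripk3 (2.19, 4.57-fold, adjusted p = 0.00219) and Mlkl (1.82, 3.54-fold, adjusted p = 0.00129), the kinase and the membrane effector of necroptosis, rose. So did Traf1 (1.27, adjusted p = 0.00247, but 0.0125 by the methods' one-way test, where the call is lost), a TRAF adaptor, and Tradd (0.74, adjusted p = 0.00834), the adaptor of Tnfrsf1a, whose call held in 15 of 30 alternative settings (adjusted p up to 0.0289). Ikbkg, the regulatory subunit of the IκB kinase, fell by 1.1 on its probe A_52_P156110 (adjusted p = 0.00239), but its other probes differed by 0.00 (A_51_P260300, adjusted p = 0.992) and -0.57 (A_51_P423404, adjusted p = 0.221), so the probes of Ikbkg disagreed. In Myd88KO trachea 0 of the 24 were called (0.376% of all tested probes were), but 6 with array weights and 1 without injured replicate 5. The list medians were 0.27 in wild-type and 0.20 in Myd88KO.

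Of 18 genes that TNF is known to induce, 15 were tested, and 2 were called higher after injury in wild-type, where 3.24% of all tested probes were. Ccl2, a monocyte chemokine, rose by 3.32 (9.97-fold, adjusted p = 0.000482, but 0.0118 and not called by the methods' one-way test) and Mmp9, a protease abundant in neutrophils, by 2.22 (4.67-fold, adjusted p = 0.00419). The Mmp9 call was lost without uninjured wild-type replicate 2, 4 or 5 or injured wild-type replicate 1, 3 or 5 (adjusted p up to 0.0152). In Myd88KO trachea 0 were called (0.376% of all tested probes were) and Sod2, the mitochondrial superoxide dismutase, had the lowest p, at -0.58 (adjusted p = 0.104). Between injured groups all 15 were lower in Myd88KO, with a median of -0.63 and 11 at an unadjusted p under 0.05, although 0 were called. Over all tested probes 8.09% were lower at that level and 0.38% were called. Without injured wild-type replicate 3, 1 of the 15 was called. Without injured Myd88KO replicate 5 the median was -0.60, with 9 at an unadjusted p under 0.05. Ccl2 was nearest to a call at -2.42 (adjusted p = 0.0207). Without injury, 8 of these 15 genes were higher and 7 lower in Myd88KO, with a median of 0.01 and 0 at an unadjusted p under 0.05. Whether the genes of this list followed Tnf was not tested.

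**Figure D4:**
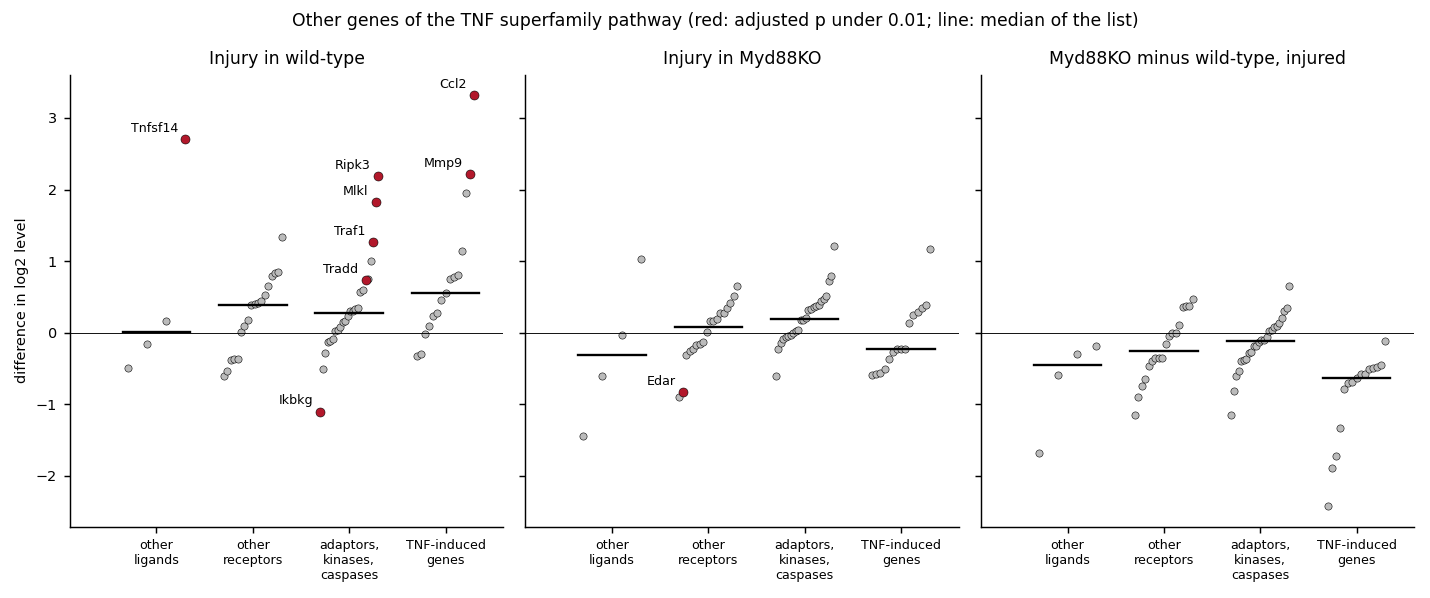
Difference in log2 level (y axis) of each tested gene in the 4 lists (x axis), 1 point per gene, with called genes in red and named and the list median as a line. In injured Myd88KO against wild-type the 15 tested TNF-induced genes lie below 0 (median -0.63), while 0 genes of any list are called.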

How the data were processed

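The authors deposited the scanner output of 20 one-colour arrays, 1 per sample, and a value table. The intensity used was each spot's signal after Agilent Feature Extraction 9.5.1.1 had subtracted the background, per the file headers. No scaling between arrays had been applied. The deposited value table holds the same intensity, rounded, and served as an alternative. From these, log2 intensities were taken, 1960 outlier spot values were left out, spots of a probe were averaged and each array was centred on its 75th percentile. The 26063 probes well above background on at least 10 arrays were tested with limma 3.58.1 in R 4.3.3, with all 4 groups in 1 fit, 5 contrasts and Benjamini-Hochberg adjustment within a contrast. Precision is limited by having 5 arrays a group. The fit was tested on simulated data.

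Members and lists were chosen with earlier results of these data known. List genes were named where called (up to 5), otherwise the gene of lowest p. A gene that this rule names is not reported here. Gene names were updated through RefSeq. Replicates of 1 number share a slide, per the file headers, so slide and scan day were tried as blocks. Of 30 same-numbered pairs, 23 had correlated deviations (r over 0.1, range -0.262 to 0.476). The labels and the study's methods differ in age, route of instillation and amount of RNA.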

Additional observations from a re-analysis of the deposited data

Results flagged for a closer look

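Of 56 groups of 5 arrays examined over the 14 member probes, 1 held an array far from the other 4, and chance alone flags about 5% of groups. It was the Tnfsf13b probe A_52_P365480 in injured wild-type replicate 4, at -5.82 against -4.58 to -4.11 on the others. Both Tnfsf11 probes lay outside the tests because of their low signal, yet were well above background only in injured trachea, A_52_P488947 on 3 arrays and A_51_P465640 on 2.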

How the results depend on the processing

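The Tnfrsf1b call (A_52_P228621) after injury in wild-type held in all 10 other settings (2.21 to 2.61, adjusted p up to 0.00207) and with each of the 20 arrays left out (2.44 to 2.79, adjusted p up to 0.00338). The number of member probes called after injury in wild-type was 1, but 2 with the slide as a replicate block and 3 with array weights. It was 1 to 2 with an array left out, 2 without uninjured wild-type replicate 1 or injured Myd88KO replicate 4. Tnfsf13b (A_51_P257934) was the added probe each time, joined by Tnfrsf1a under array weights. After injury in Myd88KO it was 0, and 1 with array weights, Tnfrsf1b (1.46, adjusted p = 0.00957). The cause was not tested. The replicate block changed no other member call. Signs changed in 16 member comparisons, 11 under other settings and 15 with an array left out, all of them with an unadjusted p of 0.05 or more in the reported fit. Over all tested probes, the count called after injury in Myd88KO was 98, but 0 when fitted on the compared groups only or by the methods' one-way test, 361 when scan day was a block, 2089 with array weights and 1075 without injured Myd88KO replicate 5. After injury in wild-type it was 1372, between 666 and 1843 with an array left out, 2106 when scan day was a block and 2630 with array weights. The range with an array left out lacks the fit without uninjured wild-type replicate 2, which gave no count. Probes near background, such as Tnfsf11, have no usable difference.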
